A study of Oryza sativa with 6 samples.

Results

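The 8 genes described here are 2 A-type cyclin-dependent kinases (CDKs), 2 B-type CDKs, 3 B-type cyclins and the CDK inhibitor KRP1 of rice (Oryza sativa), out of 46732 loci in the deposited table. They were chosen by locus identifier, with earlier results of these data known: CDKA-1 (LOC_Os03g02680), CDKA-2 (LOC_Os02g03060), CDKB1-1 (LOC_Os01g67160), CDKB2-1 (LOC_Os08g40170), CYCB1-1 (LOC_Os01g59120), CYCB2-1 (LOC_Os04g47580), CYCB2-2 (LOC_Os06g51110) and KRP1 (LOC_Os02g52480). The list they were taken from writes the names with a semicolon (CDKA;1). The hyphenated form is a synonym in the RefSeq gene table, which holds all 8 names but none of the locus identifiers, and 2 of its entries carry the name CYCB1-1. All 8 genes had a mean above 0.5 RPKM (reads scaled to the length of the gene model and to the library total), the level needed to be tested.

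RNA came from young panicles 8 to 10 cm long, in 3 libraries of NIL-qigl1HD385 and 3 of NIL-qIGL1NIP, a pair of near-isogenic lines. The lines carry the HD385 and the NIP version of the grain length locus qIGL1, and the labels give the genotype of both as wild type, and name no treatment and no age other than the panicle length. The comparison asks which genes differ in expression between the lines. The labels do not say which chromosome segments each line carries or whether libraries come from separate plants. A p-value here sets the difference between the lines against the spread between libraries of a line, which may thus be technical only.

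Cell division in plants is driven by CDKs, kinases that are active only when bound to a cyclin. A-type CDKs carry the PSTAIRE motif of yeast and animal CDKs and act throughout the cycle, whereas B-type CDKs are found only in plants and act around mitosis. B-type cyclins accumulate in G2 and early mitosis and are destroyed as mitosis ends, so their transcripts serve as markers of dividing cells. KRPs (Kip-related proteins) bind CDK and cyclin complexes and inhibit them. In rice the final size of the grain is bounded by the spikelet hull, whose size depends on how many cells are formed and how far they expand.

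Libraries held 43536754 to 52466060 reads, as recovered from the steps of the RPKM values, and between 32231 and 33646 loci were above 0. A pair of libraries stood apart over all 23181 tested loci. The first principal component (43.8% of the variance) separated the lines, at 9.79, 76.6 and 12.5 in NIL-qigl1HD385 and -39.9, -34.3 and -24.6 in NIL-qIGL1NIP. On it the most distant library was NIL-qigl1HD385 replicate 2, and on the second (24.8%) it was NIL-qIGL1NIP replicate 3. Results are therefore given with and without these libraries. Without them a lack of overlap between the lines is easier to meet, and its share over all tested loci was not determined. Where the lines did not overlap with all libraries, they cannot overlap without these libraries. The labels give no batch. Identifiers are not paired with names, so the panicle identity of the samples could not be checked against marker genes.

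The B-type cyclins, the mitotic kinase CDKB2-1 and KRP1 had lower levels in every NIL-qigl1HD385 library than in any NIL-qIGL1NIP library, while both A-type kinases and CDKB1-1 overlapped between the lines. The mean of NIL-qigl1HD385 was 0.298 times that of NIL-qIGL1NIP for CYCB1-1, 0.342 times for CYCB2-2, 0.478 times for CYCB2-1, 0.421 times for CDKB2-1 and 0.677 times for KRP1. None of the 8 genes passed a Benjamini-Hochberg adjusted p under 0.05 in limma, where 0.733% of the tested loci did. The adjusted p values lay between 0.16 and 0.92. Before adjustment, 5 of the 8 had a p under 0.05 in limma, all of them lower in NIL-qigl1HD385, against 7.20% of the tested loci in that direction. The count of 5 changed with the libraries kept. Dropping NIL-qigl1HD385 replicate 2 lowered the count to 2, and dropping NIL-qIGL1NIP replicate 3 lowered it to 1. With both of them dropped the count stood at 4, namely CDKB2-1, CYCB1-1, CYCB2-1 and KRP1. Dropping any other single library gave 4 or 5. Voom on recovered reads likewise called 0 of the 8 and gave 5 with an unadjusted p under 0.05. The same 5 genes had lines that did not overlap, which held in that direction for 10.3% of the tested loci, and these counts rest on the same values. Since the genes were chosen with earlier results known, neither count measures an excess over the tested loci. The median log2 difference was -0.75 over the 8 genes and 0.02 over the 23181 tested loci. In bulk RNA, fewer dividing cells and less RNA per dividing cell cannot be told apart.

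**Figure D1:**
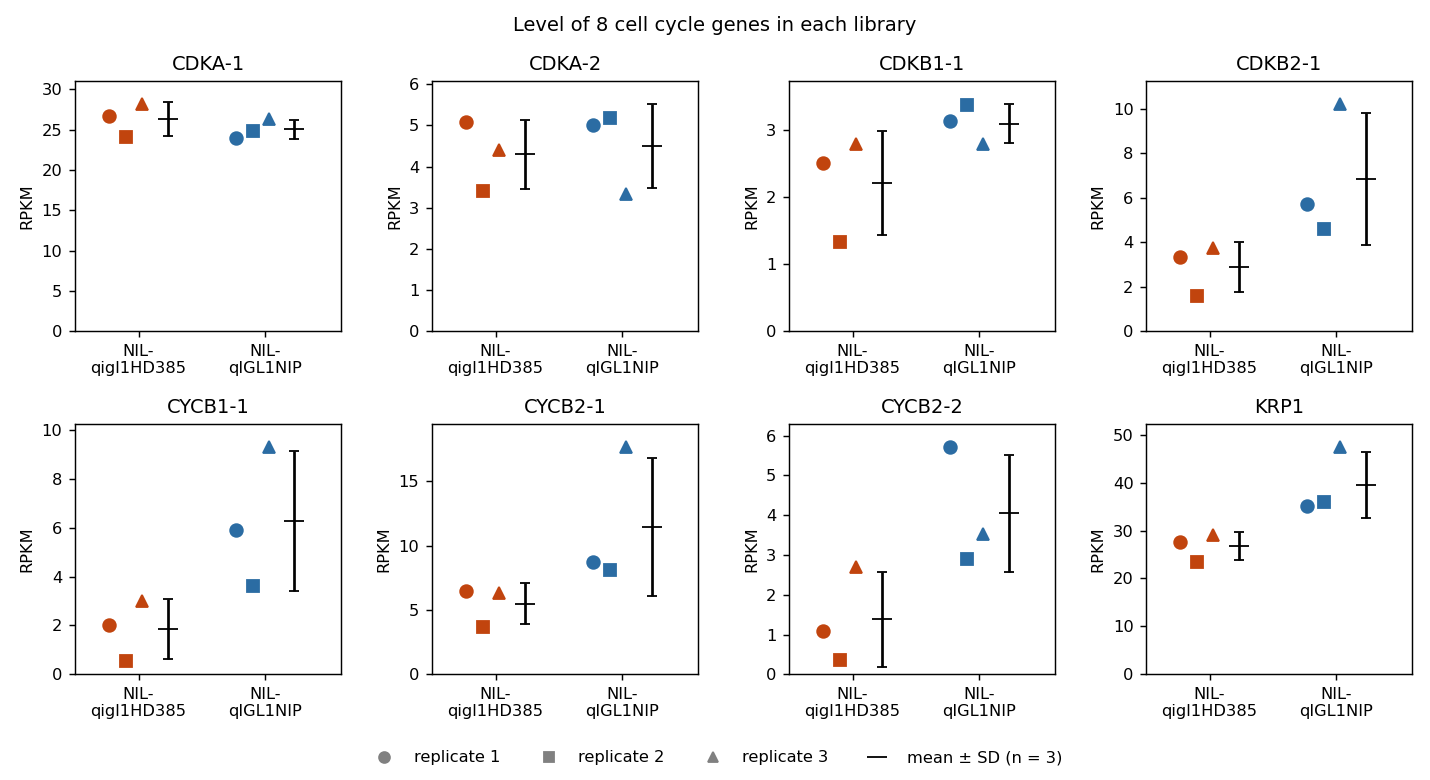
RPKM (vertical axis, from 0) of each gene in every library of NIL-qigl1HD385 (red, left) and NIL-qIGL1NIP (blue, right), with symbols for the replicate and the mean ± SD (n = 3) beside the points. The lines do not overlap for CDKB2-1, the 3 B-type cyclins and KRP1, and replicate 2 is the lowest NIL-qigl1HD385 library in all 8 panels.

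CDKA-1 encodes a PSTAIRE kinase and was the steadiest of the 8 genes. It had 26.7, 24.1 and 28.2 RPKM in NIL-qigl1HD385, against 23.9, 24.8 and 26.3 RPKM in NIL-qIGL1NIP. The lines overlapped, and the highest library was only 1.18 times the lowest. NIL-qigl1HD385 averaged 26.3 ± 2.09 RPKM, and NIL-qIGL1NIP averaged 25.0 ± 1.21 RPKM (SD, n = 3 each). The log2 difference was 0.07 (SE 0.10, adjusted p = 0.74 in limma), with a 95% interval of -0.16 to 0.30. On the fitted scale this interval runs from 0.894 to 1.23 times the NIL-qIGL1NIP level. Without the libraries that stand apart, CDKA-1 was 1.13 times as high in NIL-qigl1HD385. Its lines then no longer overlapped, which is a weaker condition with fewer libraries.

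CDKA-2, the second A-type kinase, was expressed at a lower level. It had 5.08, 3.41 and 4.41 RPKM in NIL-qigl1HD385, against 5.02, 5.17 and 3.34 RPKM in NIL-qIGL1NIP. The libraries that stand apart were the lowest of their lines, and the lines overlapped. For CDKA-2 the log2 difference was -0.06 with a 95% interval of -0.56 to 0.45 (adjusted p = 0.92 in limma), and it was -0.10 without both libraries that stand apart. CDKA-1 exceeded CDKA-2 in every library, by 4.76 to 7.88 times.

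CDKB1-1 belongs to the B-type kinases, whose transcripts are known from plants to appear from S phase to mitosis for the B1 class. It had 2.51, 1.33 and 2.79 RPKM in NIL-qigl1HD385, against 3.14, 3.37 and 2.79 RPKM in NIL-qIGL1NIP. NIL-qigl1HD385 replicate 2 stood below the other 5 libraries, and replicate 3 of both lines had nearly equal values. The log2 difference was -0.45 (SE 0.24, adjusted p = 0.39 in limma), with a 95% interval of -1.03 to 0.13. Without NIL-qigl1HD385 replicate 2 it was -0.19, and without both libraries that stand apart -0.25. In the latter comparison the lines of CDKB1-1 did not overlap.

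CDKB2-1 is of the B2 class, whose expression is confined to G2 and mitosis in plants studied so far. It had 3.34, 1.59 and 3.72 RPKM in NIL-qigl1HD385, against 5.72, 4.59 and 10.2 RPKM in NIL-qIGL1NIP. Every NIL-qigl1HD385 library was below every NIL-qIGL1NIP library, with the extremes in the libraries that stand apart. NIL-qigl1HD385 averaged 2.88 ± 1.13 RPKM, and NIL-qIGL1NIP averaged 6.84 ± 2.98 RPKM (SD, n = 3 each). For CDKB2-1 the log2 difference was -1.11 (SE 0.37, adjusted p = 0.22 in limma), with a 95% interval of -1.99 to -0.22. Without both libraries that stand apart the log2 difference was -0.48 (adjusted p = 0.26 in limma). CDKB2-1 was 1.20 to 1.33 times as abundant as CDKB1-1 in NIL-qigl1HD385, against 1.36 to 3.67 times in NIL-qIGL1NIP. The value of 3.67 came from NIL-qIGL1NIP replicate 3 alone, and without the libraries that stand apart the ratio averaged 1.33 in NIL-qigl1HD385 and 1.59 in NIL-qIGL1NIP.

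CYCB1-1, a B1-type mitotic cyclin, had the largest log2 difference of the 8 genes with all 6 libraries, though not without NIL-qIGL1NIP replicate 3, where CYCB2-2 had -1.49, or without both libraries that stand apart. It had 2.03, 0.563 and 3.01 RPKM in NIL-qigl1HD385, against 5.89, 3.61 and 9.30 RPKM in NIL-qIGL1NIP. The lines did not overlap, and the spread within each was wide: the highest of the 6 libraries was 16.5 times the lowest. NIL-qigl1HD385 averaged 1.87 ± 1.23 RPKM, and NIL-qIGL1NIP averaged 6.27 ± 2.86 RPKM (SD, n = 3 each). For CYCB1-1 the log2 difference was -1.59 (SE 0.51, adjusted p = 0.20 in limma), with a 95% interval of -2.81 to -0.37. Leaving out NIL-qigl1HD385 replicate 2 gave -1.09, leaving out NIL-qIGL1NIP replicate 3 gave -1.28, and leaving out both gave -0.78. In that last comparison NIL-qigl1HD385 averaged 2.52 RPKM and NIL-qIGL1NIP 4.75 RPKM.

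CYCB2-1 was the most abundant of the 3 B-type cyclins. It had 6.50, 3.68 and 6.28 RPKM in NIL-qigl1HD385, against 8.69, 8.08 and 17.6 RPKM in NIL-qIGL1NIP. The lines did not overlap, and NIL-qIGL1NIP replicate 3 was far above the other libraries of its line. NIL-qigl1HD385 averaged 5.49 ± 1.57 RPKM, and NIL-qIGL1NIP averaged 11.5 ± 5.35 RPKM (SD, n = 3 each). The log2 difference was -0.95 (SE 0.34, adjusted p = 0.24 in limma), with a 95% interval of -1.77 to -0.13. Without both libraries that stand apart it was -0.37, with averages of 6.39 RPKM for NIL-qigl1HD385 and 8.39 RPKM for NIL-qIGL1NIP.

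CYCB2-2, the other B2-type cyclin, followed a different order of libraries. It had 1.08, 0.372 and 2.70 RPKM in NIL-qigl1HD385, against 5.71, 2.91 and 3.53 RPKM in NIL-qIGL1NIP. The lines did not overlap, but here NIL-qIGL1NIP replicate 1 was highest and the gap between the lines was narrow, between 2.70 and 2.91 RPKM. The exact 95% counting intervals of these neighbouring values overlapped, at 2.38 to 3.07 RPKM in NIL-qigl1HD385 replicate 3 and 2.58 to 3.28 RPKM in NIL-qIGL1NIP replicate 2. For CYCB2-2 the log2 difference was -1.42 (SE 0.49, adjusted p = 0.22 in limma), with a 95% interval of -2.59 to -0.25. Without both libraries that stand apart it was -1.03 (adjusted p = 0.37 in limma).

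KRP1 encodes a CDK inhibitor, and in rice its overexpression is known to lower cell number in leaves and to disturb seed filling. It had 27.7, 23.4 and 29.1 RPKM in NIL-qigl1HD385, against 35.2, 36.0 and 47.4 RPKM in NIL-qIGL1NIP. All NIL-qigl1HD385 libraries were below all NIL-qIGL1NIP libraries, and the inhibitor thus lay on the same side as the mitotic cyclins. NIL-qigl1HD385 averaged 26.8 ± 2.96 RPKM, and NIL-qIGL1NIP averaged 39.5 ± 6.85 RPKM (SD, n = 3 each). For KRP1 the log2 difference was -0.55 (SE 0.15, adjusted p = 0.16 in limma), with a 95% interval of -0.91 to -0.19. KRP1 had the lowest adjusted p of the 8 genes, with a smaller difference and a smaller standard error than the B-type cyclins. Without both libraries that stand apart the log2 difference was -0.32 (adjusted p = 0.18 in limma).

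**Figure D2:**
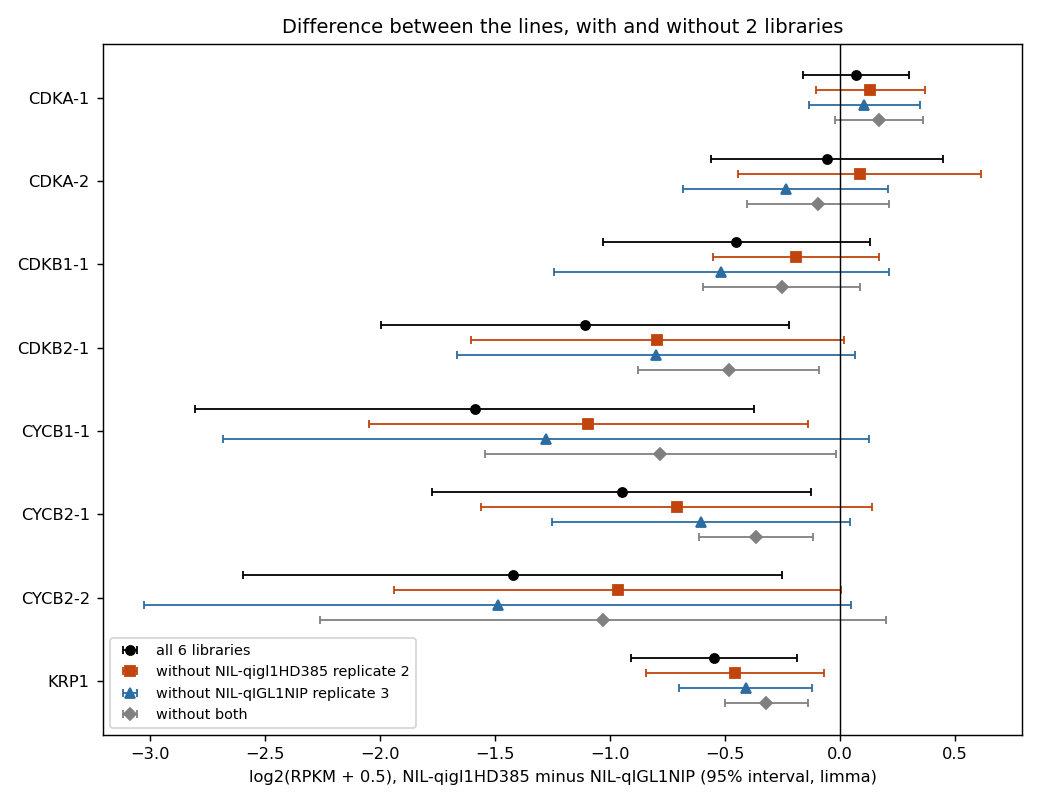
Difference between the lines on the log2(RPKM + 0.5) scale, NIL-qigl1HD385 minus NIL-qIGL1NIP, with 95% intervals from limma, for all 6 libraries and with NIL-qigl1HD385 replicate 2, NIL-qIGL1NIP replicate 3 or both left out. With all libraries the intervals of CDKB2-1, the B-type cyclins and KRP1 lie below 0, and these differences lie closer to 0 without both libraries.

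RPKM is per length, so levels can be ordered across the genes. KRP1 (mean of 33.1 RPKM over the 6 libraries) and CDKA-1 (25.7 RPKM) stood above the rest in every library. KRP1 exceeded CDKA-1 in 5 of 6 libraries, and the exception was NIL-qigl1HD385 replicate 2. The order of this pair overlapped in NIL-qigl1HD385, but in NIL-qIGL1NIP every KRP1 value was above every CDKA-1 value. CYCB2-1 (8.48 RPKM) came next in all 6 libraries, although its range overlapped that of CDKB2-1 in both lines. CDKB2-1 (4.86 RPKM), CDKA-2 (4.40 RPKM), CYCB1-1 (4.07 RPKM), CYCB2-2 (2.72 RPKM) and CDKB1-1 (2.65 RPKM) followed. Neighbours among these 5 overlapped in both lines, except that CDKA-2 was above CYCB1-1 in all NIL-qigl1HD385 libraries. CYCB2-2 was last in all 3 NIL-qigl1HD385 libraries and in NIL-qIGL1NIP replicate 2, and CDKB1-1 was last in NIL-qIGL1NIP replicates 1 and 3. Among the tested loci, KRP1 stood at percentile 85.2 of mean level, CDKA-1 at 81.0 and CDKB1-1 at 29.8.

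Summed by class, the 3 B-type cyclins had 9.61, 4.61 and 12.0 RPKM in NIL-qigl1HD385, against 20.3, 14.6 and 30.5 RPKM in NIL-qIGL1NIP. The 2 B-type kinases summed to 5.84, 2.92 and 6.51 RPKM in NIL-qigl1HD385, against 8.86, 7.96 and 13.0 RPKM in NIL-qIGL1NIP. The 2 A-type kinases summed to 31.8, 27.5 and 32.6 RPKM in NIL-qigl1HD385, against 28.9, 30.0 and 29.6 RPKM in NIL-qIGL1NIP. The first 2 sums did not overlap between the lines and the A-type sum did. Without the libraries that stand apart, the B-type cyclins averaged 10.8 RPKM in NIL-qigl1HD385 and 17.4 RPKM for NIL-qIGL1NIP, and the B-type kinases 6.18 RPKM in NIL-qigl1HD385 and 8.41 RPKM for NIL-qIGL1NIP. The A-type kinases then averaged 32.2 RPKM in NIL-qigl1HD385 and 29.5 RPKM for NIL-qIGL1NIP and no longer overlapped. These sums and the ratios below are descriptions of chosen genes and carry no test.

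Ratios within a library do not depend on how libraries were scaled to each other. The B-type cyclin sum was 0.302, 0.168 and 0.368 times the A-type kinase sum in NIL-qigl1HD385, against 0.701, 0.487 and 1.03 times in NIL-qIGL1NIP. For the B-type kinases the ratio to the A-type kinases was 0.184, 0.106 and 0.200 in NIL-qigl1HD385, against 0.306, 0.265 and 0.439 in NIL-qIGL1NIP. Neither ratio overlapped between the lines. KRP1 relative to the A-type kinases was 0.871, 0.853 and 0.893 in NIL-qigl1HD385, against 1.22, 1.20 and 1.60 in NIL-qIGL1NIP. This ratio was close to constant in NIL-qigl1HD385 (0.872 ± 0.020) and its NIL-qIGL1NIP values (1.34 ± 0.227, SD, n = 3 each) were all higher. KRP1 relative to the B-type cyclins was 2.88, 5.08 and 2.43 in NIL-qigl1HD385, against 1.73, 2.46 and 1.56 in NIL-qIGL1NIP, and here the lines overlapped. With both libraries that stand apart left out, the ratio to the A-type kinases averaged 0.335 in NIL-qigl1HD385 and 0.594 in NIL-qIGL1NIP for the B-type cyclins, and 0.882 in NIL-qigl1HD385 and 1.21 in NIL-qIGL1NIP for KRP1, again without overlap.

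**Figure D3:**
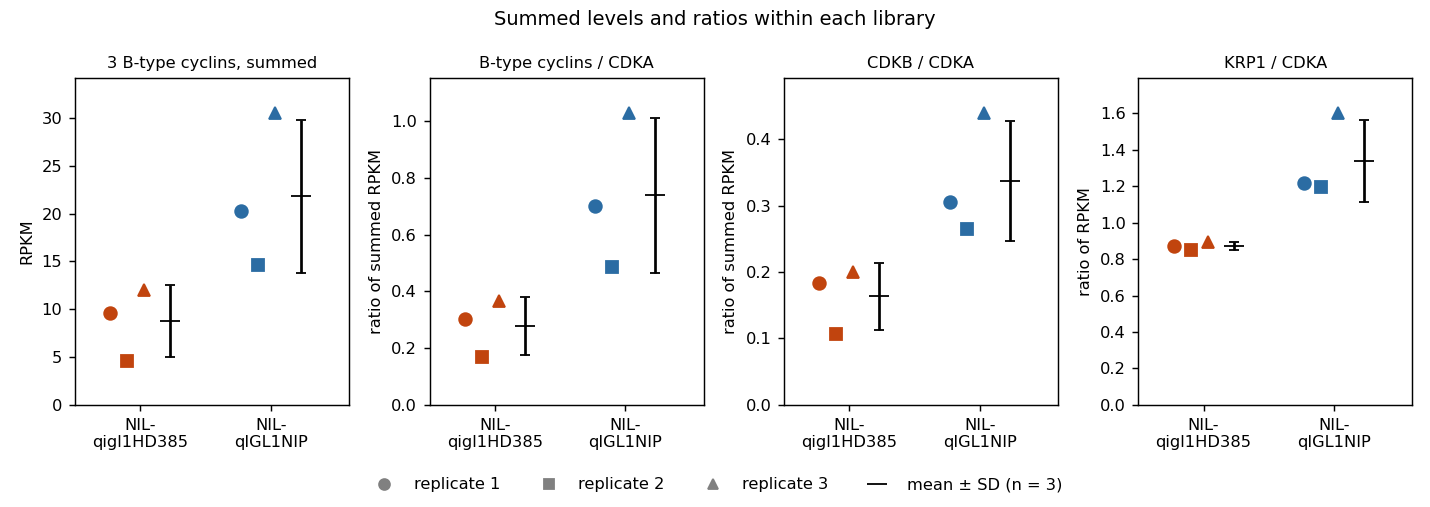
Summed RPKM of the 3 B-type cyclins, and ratios within each library of the B-type cyclins, the B-type kinases and KRP1 to the summed A-type kinases (vertical axes from 0), for NIL-qigl1HD385 (red, left) and NIL-qIGL1NIP (blue, right), with the mean ± SD (n = 3). The 3 KRP1 ratios of NIL-qigl1HD385 lie between 0.853 and 0.893, all below those of NIL-qIGL1NIP.

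The composition of the cyclin pool varied between libraries. CYCB2-1 made up 67.6, 79.8 and 52.3% of the 3 B-type cyclins in NIL-qigl1HD385, against 42.8, 55.3 and 57.9% in NIL-qIGL1NIP. The CYCB1-1 share was 21.1, 12.2 and 25.1% in NIL-qigl1HD385, against 29.0, 24.7 and 30.5% in NIL-qIGL1NIP. Both shares overlapped between the lines. The share of CYCB2-1 was highest and that of CYCB1-1 lowest in NIL-qigl1HD385 replicate 2, the library with the least B-type cyclin.

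Across the 6 libraries CDKB2-1 and CYCB2-1 had the most similar patterns of the mitotic genes, and CYCB2-2 was closer to CYCB1-1 than to either of them. CDKB2-1, CYCB1-1, CYCB2-1 and KRP1 were each lowest in NIL-qigl1HD385 replicate 2 and highest in NIL-qIGL1NIP replicate 3, a pair of extremes found in 8.39% of the tested loci. Of the 8 genes, 6 were lowest in NIL-qigl1HD385 replicate 2, against 31.9% of the tested loci. These are the libraries that stand apart over all loci, and their part in the shared pattern was not tested. The likeness of patterns was measured as the root mean square difference of log2(RPKM + 0.5), each gene centred on its mean over the 6 libraries, so that a small value needs the same libraries to be high and the swings to be alike in size. CDKB2-1 differed from CYCB2-1 by 0.137 log2 units, which placed CYCB2-1 at rank 8 of the 23180 other loci in likeness to CDKB2-1. From CYCB1-1, CDKB2-1 differed by 0.332 (rank 28), CYCB2-2 by 0.423 (rank 62) and CYCB2-1 by 0.464 (rank 87), against a median of 1.04 over all loci. KRP1 (rank 920) and CDKB1-1 (rank 1319) were less alike, and CDKA-1 (rank 9327) and CDKA-2 (rank 10115) lay near the middle of all loci. With each line centred on its own mean, which removes the difference between the lines, CDKB2-1 stood at rank 27, CYCB2-1 at 139 and CYCB2-2 at 439 in likeness to CYCB1-1. The other B2-type genes were more like each other than like CYCB2-2, whose ranks depended on the gene taken as reference. CYCB2-2 ranked 8632 in likeness to CYCB2-1 and 1803 in likeness to CDKB2-1 over the 6 libraries. With each line centred it ranked 19395 and 12702, both beyond the median locus. In likeness to CYCB2-2, CDKB2-1 ranked 318 and CYCB2-1 960 over the 6 libraries, and 3558 and 11478 with each line centred.

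**Figure D4:**
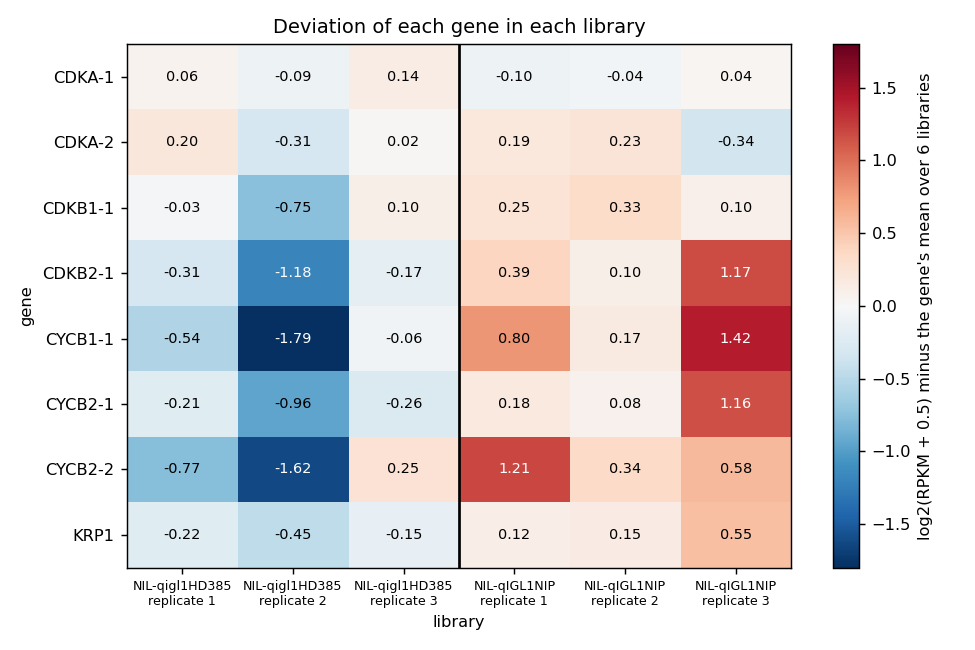
Deviation of each gene (rows) in each library (columns) from the gene's mean over the 6 libraries, in log2(RPKM + 0.5) units, red above and blue below the mean, with the 3 NIL-qigl1HD385 libraries left of the line. CYCB1-1 spans -1.79 in NIL-qigl1HD385 replicate 2 to 1.42 in NIL-qIGL1NIP replicate 3, and CDKA-1 stays between -0.10 and 0.14.

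The loci most like CYCB1-1 over the 6 libraries were LOC_Os03g04550 and LOC_Os01g70560, for which the files give no name. LOC_Os03g04550 had 5.55, 2.33 and 7.41 RPKM in NIL-qigl1HD385, against 15.2, 9.53 and 27.7 RPKM in NIL-qIGL1NIP, and differed from CYCB1-1 by 0.114 log2 units. LOC_Os01g70560 had 1.49, 0.261 and 2.15 RPKM in NIL-qigl1HD385, against 3.66, 2.67 and 8.06 RPKM in NIL-qIGL1NIP, at 0.129 log2 units. In both, the order of the 6 libraries was that of CYCB1-1, which the choice by likeness favours. Their adjusted p values between the lines were 0.18 and 0.23 in limma.

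The mitotic genes had a wide spread between libraries of the same line. The pooled SD within lines was 0.77 log2 units for CYCB1-1, 0.74 for CYCB2-2, 0.55 for CDKB2-1 and 0.51 for CYCB2-1. Among tested loci within 0.25 log2 units of the same level, these stood at percentiles 95.2, 94.4, 90.9 and 92.7. CDKA-1 had an SD of 0.09 (percentile 22.9), KRP1 0.20 (64.8), CDKA-2 0.29 (69.4) and CDKB1-1 0.33 (71.1). Standard errors of the B-type cyclins were 0.34 to 0.51, against a median of 0.17 for the tested loci. Their differences of about 1 to 1.6 log2 units did not reach the threshold, nor did that of KRP1, whose standard error was 0.15. The spread of CYCB1-1 within a line exceeded its counting error: the gene in NIL-qigl1HD385 had exact 95% counting intervals of 1.75 to 2.34, 0.421 to 0.736 and 2.66 to 3.40 RPKM, which do not overlap.

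**Figure D5:**
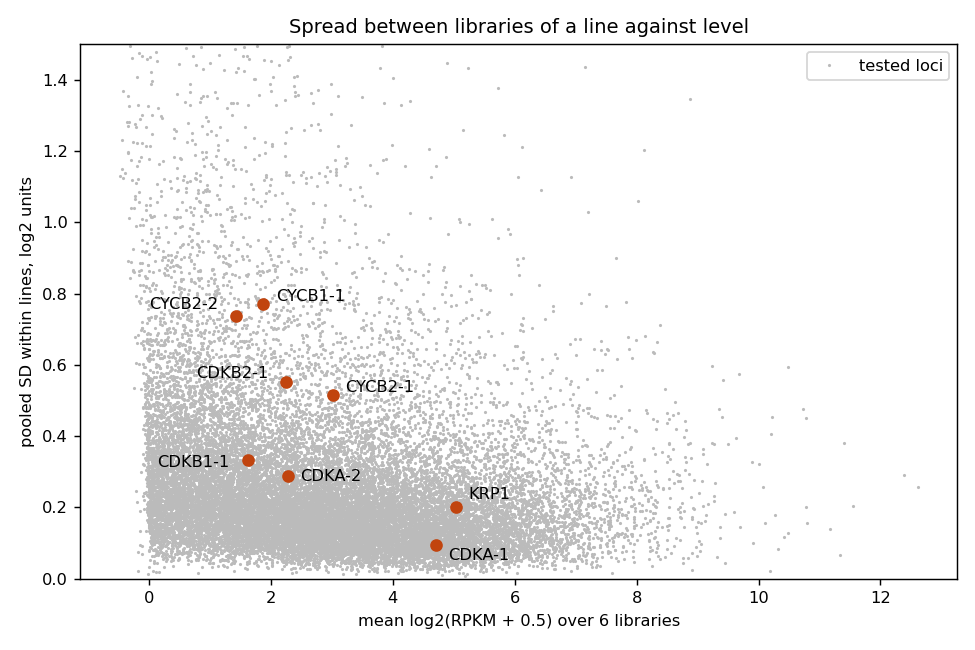
Pooled SD within lines (vertical axis, log2 units) against the mean log2(RPKM + 0.5) over the 6 libraries for the tested loci (grey) and the 8 genes (red), with 196 loci above 1.5 off the plot. CYCB1-1, CYCB2-2, CDKB2-1 and CYCB2-1 lie at SDs of 0.51 to 0.77, and CDKA-1 at 0.09.

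The surroundings of each gene were examined by locus number, since introgressed segments can set near-isogenic lines apart at linked loci. Among the 25 tested loci on either side, 0 of 50 had an adjusted p under 0.05 in limma, for each of the 8 genes. The share over all tested loci was 0.733%, so a count of 0 among 50 is unremarkable. Whether a segment differs around any of the genes was not tested. Loci lower in NIL-qigl1HD385 with no overlap between the lines made up 4% of the neighbours of CYCB2-2, 8% for CDKA-1 and CDKB2-1, 10% for CDKA-2 and KRP1, 12% for CYCB2-1 and 16% for CDKB1-1 and CYCB1-1, against 10.3% of all tested loci. The median log2 difference of these neighbours lay between -0.06 and 0.06 around all 8 genes.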

How the data were processed

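The authors deposited 1 RPKM value per locus and library. Per the labels' protocols, paired reads of stranded mRNA libraries came from a DNBSEQ-T7 sequencer. Per the submitters' processing notes, edgeR 3.12.1, Subread 1.5.1, featureCounts and Trimmomatic 0.36 were used, in roles that are not named. The sources used here do not give the aligner, build or strand setting, so reads of overlapping, antisense or near-identical loci may be shared.

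The 8 genes, and the tests, were chosen with earlier results of these data known. All 8 are named, with the 2 loci most like CYCB1-1. The test was limma 3.58.1 (R 4.3.3, eBayes with trend, no covariate, two-sided) on log2(RPKM + 0.5) for the 23181 loci averaging at least 0.5 RPKM, with a call at an adjusted p (Benjamini-Hochberg) under 0.05. This scale understates the change of low loci. Differences are NIL-qigl1HD385 minus NIL-qIGL1NIP. With 3 libraries per line, an exact permutation test cannot go below 0.1, so none was run.

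Reads were recovered from the RPKM steps with Python 3.11.15: 100% of the values above 0 were whole within 0.003 reads plus 2e-08 of the value, for lengths of 60 to 17000 bases. They are the smallest that fit, which gives the widest counting intervals. Whether a pair counts as 1 or 2 reads is not given, and intervals cover counting error only. The read recovery and the limma test were also run on simulated data with known answers. For limma, all simulated loci had the same relative spread beyond counting error, so that run does not cover the wide spread of the mitotic genes. Alternatives were pseudocounts, filters, scalings, variance models, the replicate block, voom and leaving out libraries. Other cell cycle and marker lists could not be matched to identifiers, and no sequence was used.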

Additional observations from a re-analysis of the deposited data

How the results depend on the processing

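None of the 8 genes was called in any of the 17 alternatives, among them voom and the replicate block (lowest adjusted p = 0.14 in limma, CYCB1-1 with the block). CDKB1-1, CDKB2-1, the B-type cyclins and KRP1 stayed lower and CDKA-1 higher in NIL-qigl1HD385 throughout. With 1 library left out, log2 differences ranged from 0.02 to 0.13 for CDKA-1, -0.24 to 0.085 for CDKA-2, -0.62 to -0.19 for CDKB1-1, -1.34 to -0.79 for CDKB2-1, -1.96 to -1.09 for CYCB1-1, -1.15 to -0.61 for CYCB2-1, -1.91 to -0.97 for CYCB2-2 and -0.62 to -0.41 for KRP1. CDKA-2 turned positive when NIL-qigl1HD385 replicate 2 (0.085), NIL-qIGL1NIP replicate 1 (0.026) or NIL-qIGL1NIP replicate 2 (0.045) was left out. Genes with an unadjusted p under 0.05 in limma numbered 5 with all libraries. They fell to 2 once NIL-qigl1HD385 replicate 2 was dropped, and to 1 once NIL-qIGL1NIP replicate 3 was dropped. With both dropped they numbered 4, and with any other single library dropped 4 or 5. Leaving both out was chosen after seeing the data. Over all loci, 170 were called, 94 with a mean of at least 2 RPKM (fewer loci tested), 84 to 112 with 1 library left out, 93 without both and 46 with the replicate block. The labels give no pairing behind the replicate numbers, and across loci the deviations of same-numbered libraries had correlations of -0.28, -0.25 and -0.41. For CDKB2-1 and the B-type cyclins, but not the other genes, replicate 2 was the lowest library of each line. With the block the standard error fell from 0.51 to 0.19 for CYCB1-1 and from 0.37 to 0.19 for CDKB2-1. It also fell for CYCB2-1, CYCB2-2 and KRP1, but rose for CDKA-1, CDKA-2 and CDKB1-1 (from 0.24 to 0.26). Whether the replicate numbers mark a pairing was not tested. Relative counting error is largest where reads are few, such as CYCB2-2 in NIL-qigl1HD385 replicate 2 (36 reads). The standard error did not simply follow read number. It was 0.24 for CDKB1-1, with 355 reads in NIL-qigl1HD385 and 514 in NIL-qIGL1NIP. For CYCB1-1, with 503 and 1724 reads, it was 0.51.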
